A study of Mus musculus with 12 samples.

Results

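Ribosomal protein genes encode the proteins of the cytosolic ribosome, the particle that reads messenger RNA in every cell. They were taken by name from the gene table of the deposited matrices: symbols that begin with Rpl, Rps or Rplp and a number, and Rpsa, without the S6 kinases and without names holding -ps. Of the 31053 genes in the table, 86 had such a name, and 85 of them reached the limit of 100 counted molecules over all matrices. The members were thus selected on their summed count, and the set was chosen by its share of molecules in each library and cell class, so these values are given as descriptions. The members just inside the limit were Rpl3l with 200 and Rpl39l with 241 molecules, and the member just outside was Rpl10l with 0.

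The data are single-cell counts from 12 mouse samples in 3 sources of cells: 4 of tracheal allograft, 4 of native trachea and 4 of spleen. Per the labels, the tracheal cells of either kind are mesenchymal progenitors, and the spleen cells are splenocytes. Strain, allele, age, sex, time after grafting and treatment are not given in the sources used here. The series title places the study in airway fibrosis after transplantation and asks about mononuclear phagocytes. Each source has 1 matrix for its 4 samples, so each was treated as 1 library. Whether the 4 samples stem from separate animals cannot be told from the counts. No difference below could be tested against a spread between animals. The intervals given are 95% intervals of counting error, and no p-value is given.

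The unit is the unique molecular identifier (UMI), a tag that marks 1 captured RNA molecule. A level is given as CPM, the UMIs of a gene per 1000000 UMIs summed over the cells of a set. This chemistry reads the 3′ end, so a captured transcript gives about 1 UMI whatever its length, and CPM is not divided by length. Total UMIs came to 26503045 in the allograft, 31415458 in the native and 28318436 in the spleen library. The cells kept numbered 3864, 4115 and 4570, and the median cell held 4965, 6526 and 4428 UMIs. Mitochondrially encoded genes took 4.87%, 4.91% and 5.84% of the UMIs of these cells. Doublet calling marked 0.672%, 0.930% and 0.185% of barcodes, against 3.69%, 3.70% and 3.88% expected from loading, so most doublets are likely to remain. The allograft library shared 4 cell barcodes with the native and 4 with the spleen library, and the native shared 7 with the spleen.

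Cells were placed in 6 classes by marker genes: 3 or more of 6 markers of a class, with a lead of 2 over every other class. Of 12549 cells, 10668 had a class. The order below is allograft, native, spleen. B cells numbered 27, 53 and 2268, T cells 357, 189 and 1094, and natural killer (NK) cells 64, 1 and 58. Macrophages numbered 2194, 1795 and 247, neutrophils 509, 556 and 258, and mesenchymal cells 55, 943 and 0. The trachea libraries were thus mostly leukocytes by these markers, whatever the label. The median spleen macrophage held 3 of the 6 markers, against 5 in either trachea library. Of that spleen class, 63.6% held just the number of markers or the lead needed. Most of its cells also held a marker of patrolling monocytes, as given below, so macrophages is the name of the gate there. A class was compared where both libraries held 50 or more of its cells. Fewer cells of a type and less RNA per cell cannot be told apart in the libraries taken whole, so the comparisons below are made within classes where that was possible.

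A mammalian ribosome joins a small subunit, which decodes the messenger, to a large subunit, which forms peptide bonds. Most of its proteins are needed in equal numbers, and the messengers of its proteins share a start rich in pyrimidines, the terminal oligopyrimidine motif. Through that motif the growth kinase mTORC1 and the RNA-binding protein Larp1 control how much they are translated. Of the 85 members, 50 belong to the large subunit and 33 to the small subunit. The other 2, Rpl7l1 and Rps19bp1, are nucleolar proteins known for ribosome biogenesis that carry a matching name. The set also holds 6 paralogs, which are second copies of a subunit gene: Rps27l, Rps27rt, Rpl36al, Rpl22l1, Rpl39l and Rpl3l. The members lie on 19 chromosomes, with 14 on chromosome 7 and 4 on the X chromosome.

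Promoter entries from RefSeq (GRCm38.p6) were found for 65 of the 85 members by symbol. The 60 bases around an annotated start are shown for 8 of them, chosen because the results turn on them: a member whose share hardly varied (Rpl27a), members that departed from the set (Rps9, Rps27, Rpl28) and paralogs. Capitals mark every run of 8 or more pyrimidines that begins with C.

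Rpl27a, chr7:109519160-109519219, + strand: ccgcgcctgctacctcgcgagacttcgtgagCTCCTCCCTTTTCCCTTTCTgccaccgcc
Rps9, chr7:3704006-3704065, + strand: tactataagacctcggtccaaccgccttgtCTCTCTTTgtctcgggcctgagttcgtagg
Rps27, chr3:90213624-90213683, - strand: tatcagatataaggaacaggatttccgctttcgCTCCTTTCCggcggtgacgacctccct
Rps27l, chr9:66946051-66946110, + strand: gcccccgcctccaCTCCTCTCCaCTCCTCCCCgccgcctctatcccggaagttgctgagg
Rpl28, chr7:4792930-4792989, + strand: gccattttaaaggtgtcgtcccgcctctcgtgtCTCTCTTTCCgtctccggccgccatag
Rpl22l1, chr3:28805473-28805532, + strand: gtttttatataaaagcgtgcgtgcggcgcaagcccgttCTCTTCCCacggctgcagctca
Rpl36al, chr12:69184043-69184102, - strand: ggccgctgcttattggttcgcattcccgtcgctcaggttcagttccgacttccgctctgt
Rpl39l, chr16:10170193-10170252, + strand: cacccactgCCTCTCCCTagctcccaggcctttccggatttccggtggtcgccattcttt

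The runs of Rpl27a, Rps9, Rps27 and Rpl28 lay across or beside the annotated start. The Rps27l window held 2 runs, both wholly before the start, beginning at positions -22 and -12 from it. The run of Rpl39l began at -26, and the Rpl36al window held no such run. Another annotated start of Rps27l held no such run in its 60 bases. Of 77 annotated starts of members, 26 equalled a GENCODE transcript start and 59 lay within 20 bases of one. These positions may thus differ from those relative to the start in use. Between 30 bases before and 50 after a start, a run of this kind was present on the strand of the transcript in 50 of 65 members (76.9%), against 7025 of 27025 genes (26.0%). Searched on both strands from 250 bases before to 50 after a start, the letters CCGGAAG occurred in 26 of 65 members (40.0%) and 9.93% of all genes, and GGGCGG in 61.5% and 38.2%. The letters TATAAA occurred in 10.8% of members and 15.7% of all genes, and CACGTG, the E-box that Myc is known to bind, in 9.23% and 8.09%. These are matches of letters, not sites of binding, and several starts of a gene were searched where the table gave them.

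Taken whole, the allograft cells gave 12.5% of their UMIs to these genes, the native cells 12.7% and the spleen cells 26.7%. The allograft over native ratio was 0.987 (0.985 to 0.988), and 1.03 with each cell thinned to 1500 UMIs. Class went with a wider range than source did. Within the spleen library the share was 33.6% in T cells, 28.3% in B cells, 20.6% in NK cells, 15.5% in macrophages and 5.95% in neutrophils. Within the native library it was 30.6% in B cells, 23.5% in T cells, 11.9% in macrophages, 11.5% in mesenchymal cells and 3.18% in neutrophils. Within the allograft library it was 23.4% in NK cells and in the 27 B cells, 22.3% in T cells, 11.5% in macrophages, 10.5% in mesenchymal cells and 2.46% in neutrophils. Among the gated classes, lymphocytes were highest and neutrophils lowest in each library, with macrophages and mesenchymal cells between them.

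**Figure D1:**
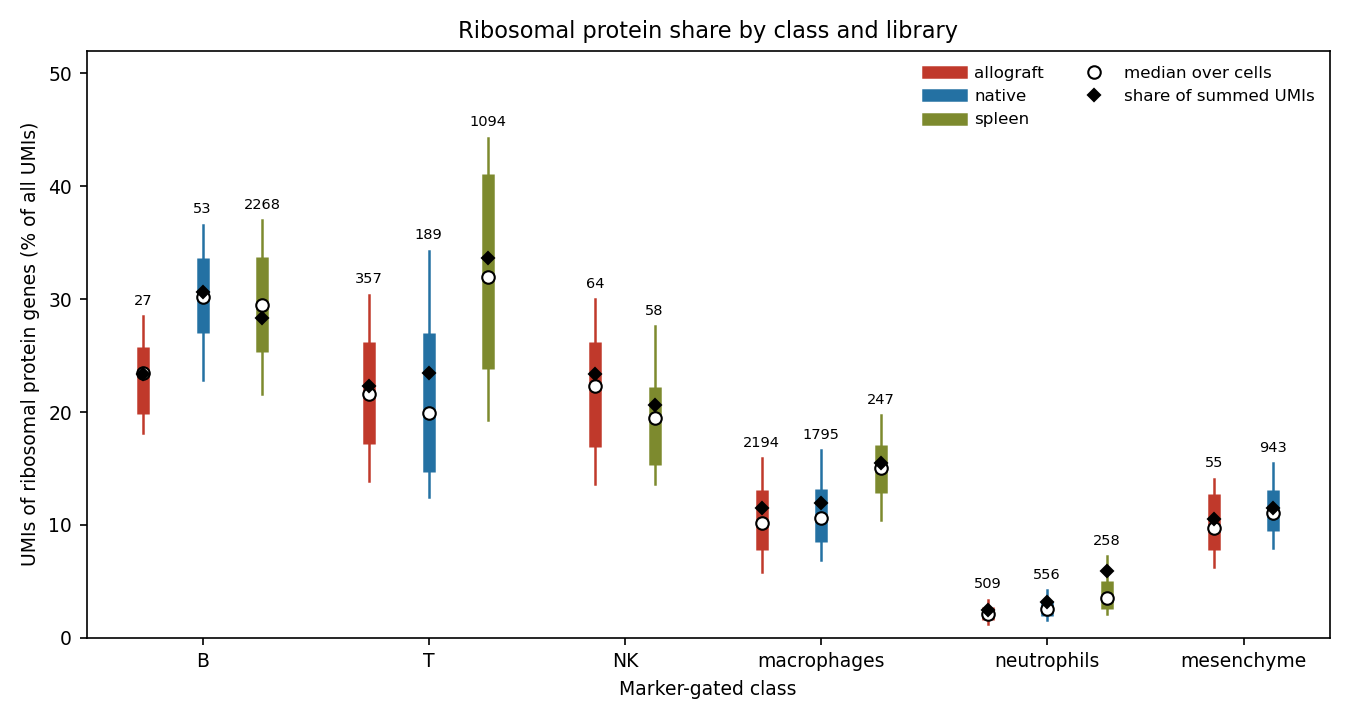
Ribosomal protein UMIs as a percentage of all UMIs (vertical axis) by marker-gated class and library; open circles are medians over cells, thick bars the 25th to 75th and thin lines the 10th to 90th percentiles over cells, diamonds the share of summed UMIs, and the number above each bar the cells. Neutrophils lie lowest, at 2.46%, 3.18% and 5.95% of summed UMIs in allograft, native and spleen, and splenic T cells highest, at 33.6%.

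The classes held these differences cell by cell. The median allograft macrophage gave 10.2% of its UMIs to ribosomal protein genes, with the middle 50% of cells between 7.76% and 13.1%. The median native macrophage gave 10.6% (8.47% to 13.2%), so these ranges overlapped almost entirely. Splenic T cells were spread wider, with a median of 32.0% and the middle 50% between 23.8% and 41.1%. The median neutrophil carried 36 ribosomal protein UMIs in the allograft, 54 in the native trachea and 89 in the spleen, against 764, 694 and 547 in the median macrophage.

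In macrophages, the most numerous class of both trachea libraries, the allograft and native shares were close, 11.5% and 11.9%, a ratio of 0.967 (0.965 to 0.969). Of 84 members with 30 or more UMIs over both libraries, 2 were higher by 1.5-fold or more in the allograft and 0 were lower by as much. Among all 11785 genes measured there, 14.9% were that much higher and 12.3% that much lower. The median log2 ratio was −0.04 over members and 0.12 over all genes. Counted as a share of ribosomal UMIs, the same number of members, 2, lay 1.5-fold or more apart, against 28.5% of all genes scaled in the same way, and 0 did when cells were thinned to 1500 UMIs.

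Both were paralogs. Rpl36al, an intronless copy of Rpl36a, stood at 94.4 CPM in allograft and 62.5 CPM in native macrophages, from 1718 and 812 UMIs (ratio 1.51, 1.39 to 1.64), while its partner Rpl36a stood at 500 and 538 CPM. Rpl39l, known in mice for the ribosomes of male germ cells, had 30 and 12 UMIs, and its ratio of 1.78 had an interval of 0.887 to 3.83. Outside the paralogs, the highest ratio was that of Rps2, a small-subunit protein, with 1335 CPM in allograft and 1091 CPM in native macrophages (1.22). The lowest were those of 2 large-subunit proteins. Rpl21 had 829 CPM in allograft and 1097 CPM in native macrophages (0.756, 0.739 to 0.773), and Rpl35, at the exit of the peptide tunnel, had 472 and 622 CPM (0.759, 0.736 to 0.782).

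Because native macrophages included 1084 cells with a UMI of Lyve1 or Cd163, markers of resident macrophages, against 88 such cells in the allograft, the values were also read in the cells without either. This split, like the other splits of single members, was chosen after the data were seen. Rpl36al was at 95.7 CPM in the allograft and 66.4 CPM in the native cells without these markers, and at 54.4 CPM (31 UMIs) and 59.5 CPM in the cells with them. The allograft excess of Rpl36al was thus present in the cells without the markers. The summed share was 11.5% in allograft and 13.4% in native macrophages without the markers, and 10.7% in both libraries' macrophages with them. Rpl21 was at 831 CPM in allograft and 1245 CPM in native macrophages without the markers.

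Other subdivisions of the macrophages were also read. Allograft macrophages with a UMI of Gpnmb or Spp1, genes of lipid-handling and scar-associated macrophages, gave 11.5% and those without also 11.5%. The native values were 12.8% with and 11.7% without. For Cxcl9, an interferon-induced chemokine, the allograft gave 11.4% with and 11.5% without, and the native trachea 13.8% with and 11.8% without. The share differed more between cells of unlike depth: allograft macrophages with 500 to 2000 UMIs gave 6.61%, with 2000 to 5000 UMIs 9.16%, with 5000 to 10000 UMIs 11.2% and above that 12.3%. The native macrophages gave 7.26%, 10.2%, 11.4% and 13.4% in the same bins. The bins hold different cells, and the cause of this was not tested. Thinned to 1500 UMIs, the allograft over native ratio in macrophages was 0.961.

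T cells gave 22.3% in the allograft and 23.5% in the native trachea, a ratio of 0.949 (0.945 to 0.954), and the median cells gave 21.6% and 19.9%, in the other order. With each cell thinned to 1500 UMIs the ratio was 1.01, so its direction depends on how cells are weighted and thinned. Of 83 members measured, 0 were 1.5-fold or more higher and 5 lower, where 19.5% and 18.4% of all genes were. The lowest was Rps27l, a paralog of Rps27 known in human cells as a target of p53, at 209 CPM in allograft and 432 CPM in native T cells (0.485, 0.421 to 0.556). Rpl28, of the large subunit, was at 2277 and 3908 CPM (0.583, 0.558 to 0.608), and Rpl35 at 644 and 1068 CPM (0.604, 0.556 to 0.655). The highest ratio was that of Rps27rt, a retrocopy of Rps27, at 92.9 and 66.5 CPM (1.40).

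The native T cells were not all like those of the graft. A list of 6 thymocyte genes summed to 269 CPM in allograft T cells and 792 CPM in native T cells, and 6 cycling genes to 201 and 692 CPM. A UMI of Rag1, Rag2 or Dntt, which act in receptor gene rearrangement, was found in 70 of the 189 native T cells and in none of the 357 allograft T cells. In the 119 native T cells without one, Rps27l was at 422 CPM, Rpl28 at 3598 CPM and Rpl35 at 1073 CPM, all still above the allograft values.

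Splenic T cells stood above both tracheal sets. Their share was 33.6%, so the ratio was 0.664 (0.662 to 0.667) for allograft over spleen and 0.700 (0.697 to 0.702) for native over spleen. These ratios share the spleen library. Of 83 members, 0 were 1.5-fold or more higher in allograft than in spleen T cells and 39 lower, where 25.7% and 22.2% of all genes were. For native over spleen T cells 1 member was higher and 28 were lower, where 27.3% and 22.8% of all genes were. The median log2 ratio was −0.58 over members and 0.05 over all genes for the allograft, and −0.47 and 0.09 for the native trachea.

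The lowest ratios of allograft over spleen T cells were those of Rpl35 (644 and 1427 CPM, 0.452), of Rpl36a (909 and 1836 CPM, 0.495), a large-subunit protein encoded on the X chromosome, and of Rps28 (1400 and 2625 CPM, 0.533). The paralog Rps27l ran the other way, at 209 CPM in allograft and 169 CPM in spleen T cells (1.24, 1.09 to 1.41), and at 432 CPM in native T cells (2.55 over spleen, 2.29 to 2.85). The 3 stalk genes, whose proteins recruit translation factors to the large subunit, followed the set. Rplp0 was at 4046, 5267 and 6179 CPM in allograft, native and spleen T cells, Rplp1 at 5229, 5031 and 8972 CPM, and Rplp2 at 2612, 2689 and 4381 CPM.

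The splenic T cells were themselves mixed. Those with a UMI of Cd8a, the coreceptor of cytotoxic T cells, gave 39.7%, and those without 30.2%. The share was lower with Foxp3, the regulatory T cell factor (24.8% in 81 cells, against 34.2% without), and with Lag3, an inhibitory receptor (24.3% in 167 cells, against 34.9% without). Depth moved along with the first split: the median was 5476 UMIs with Cd8a and 3860 UMIs without. In the allograft, T cells with Foxp3 gave 19.2% and those without 23.2%, and T cells with Lag3 gave 19.7% and those without 23.0%.

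NK cells were the class in which the graft stood above the spleen. The share was 23.4% in 64 allograft NK cells and 20.6% in 58 spleen NK cells, a ratio of 1.14 (1.13 to 1.15). Of 81 members, 4 were higher by 1.5-fold or more in the allograft and 1 lower, where 21.6% and 21.0% of all genes were, so these counts lay under the background. The 4 were Rps2 (2716 CPM in allograft and 1566 CPM in spleen NK cells, 1.73, 1.52 to 1.98), Rps6, the substrate of S6 kinase (2335 and 1458 CPM, 1.60), Rpl7a (1188 and 773 CPM, 1.54) and Rpl3 (3029 and 1991 CPM, 1.52). Rpl3 lies close to the catalytic centre. The lower member was Rps27rt, at 70.3 and 117 CPM, with an interval of 0.320 to 1.11. The class rests on few cells near its limit: 43.8% of the allograft and 31.0% of the spleen NK cells held just the number of markers or the lead needed. The T cell list summed to 1051 and 1018 CPM in them.

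**Figure D2:**
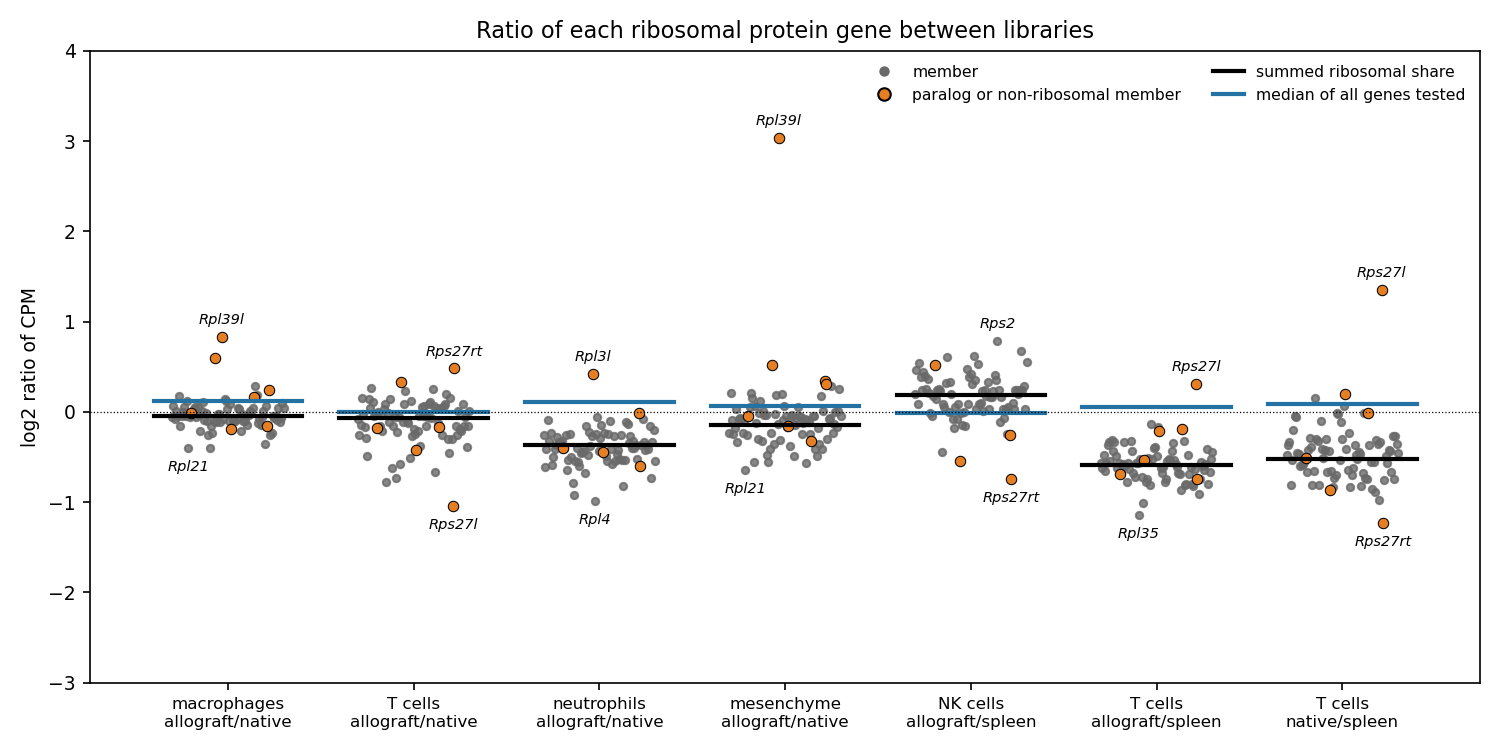
Log2 ratio of CPM (vertical axis) for each measured member in comparisons between libraries and classes (horizontal axis); grey points are members, orange points paralogs or non-ribosomal members, black lines the ratio of the summed share and blue lines the median of all genes. The black line is close to 0 for allograft over native macrophages (0.967) and T cells (0.949), and the points farthest from it are mostly paralogs such as Rps27l and Rpl39l.

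Between NK and T cells the gap was wide in the spleen and narrow in the graft, with no test of that difference. NK cells gave 20.6% and T cells 33.6% in the spleen (0.612, 0.606 to 0.618), and 23.4% and 22.3% in the allograft (1.05, 1.04 to 1.06). In the spleen 0 of 83 members were 1.5-fold or more higher in NK cells and 62 lower, where 29.8% and 19.6% of all genes were. In the allograft 1 was higher and 1 lower, where 12.9% and 20.3% were. The higher one was Rpl10, a protein added late in large-subunit assembly, at 2498 CPM in NK and 1540 CPM in T cells of the graft (1.62). It was also among the highest ratios in the spleen, at 2177 CPM in NK and 2274 CPM in T cells.

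B cells could be compared between native trachea and spleen. They gave 30.6% in 53 native cells and 28.3% in 2268 spleen cells, a ratio of 1.08 (1.07 to 1.09). Of 84 members, 0 were 1.5-fold or more higher in native B cells and 2 lower (17.5% and 37.9% of all genes). One of the 2 was Rpl39l, with 0 UMIs in native and 44 in spleen B cells, but the interval of its ratio ran from 0 to 4.25, so a lower level was not detectable at this depth. The other was Rps27rt, at 78.4 CPM in native and 132 CPM in spleen B cells (0.594, 0.380 to 0.887). Within the spleen, B cells gave 28.3% and all other cells 24.8%, a ratio of 1.14. There 1 of 85 members was higher and 1 lower, where 10.4% and 27.0% of all genes were. B cells with a UMI of Cr2, the complement receptor of mature B cells, gave 30.9% and those without gave 24.3%. Splenic B cells with 2 or more of 6 cycling genes gave 26.4%, and the rest 28.9%. Splenic T cells gave 33.6% and B cells 28.3% (1.18), and the 1 of 84 members 1.5-fold or more higher in T cells, where 17.8% of all genes were, was Rpl12, at the base of the stalk (6776 CPM in T and 4493 CPM in B cells).

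T cells gave 1.94, 1.98 and 2.17 times the share of macrophages in the allograft, native and spleen libraries. Most cells of the spleen macrophage class held a monocyte marker, so the classes compared are not alike across libraries. In the spleen 73 of 83 members were 1.5-fold or more higher in T cells and 0 lower, where 27.0% and 28.9% of all genes were. In the native trachea the counts were 74 and 0 of 83 (42.5% and 27.3% of all genes), and in the allograft 66 and 2 of 84 (37.9% and 28.2%). The largest ratio in the spleen was that of Rpl12, at 6776 CPM in T cells and 1277 CPM in macrophages (5.31). Rps27l departed from this in each library, at 209 CPM in T cells and 382 CPM in macrophages of the allograft, 432 and 425 CPM of the native trachea, and 169 and 253 CPM of the spleen.

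Macrophages of the trachea gave less than those of the spleen: 11.5% in allograft, 11.9% in native and 15.5% in spleen (0.742, 0.738 to 0.745, for allograft over spleen, and 0.767 for native over spleen). Of 84 members, 1 was 1.5-fold or more higher in allograft than in spleen macrophages and 19 were lower, where 21.9% and 35.6% of all genes were. For native over spleen macrophages the counts were 1 and 11, where 22.1% and 41.4% were. The shares of members on the lower side are thus under the background. The spleen class stood apart in its markers: 63.6% of its 247 cells were at the limit of the gate, 193 held a UMI of Ace or Treml4, which mark patrolling monocytes, and 6 erythroid genes summed to 10025 CPM there, against 0.440 CPM in allograft and 2.62 CPM in native macrophages. Their part in the result was not tested. Spleen macrophages with Ace or Treml4 gave 15.3% and those without 16.1%. The paralog Rps27l again ran the other way, at 382 CPM in allograft, 425 CPM in native and 253 CPM in spleen macrophages.

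Neutrophils, short-lived granulocytes that carry little RNA when mature, had the lowest share in every library and the largest differences between sources. The share was 2.46% in the allograft and 3.18% in the native trachea (0.774, 0.762 to 0.787), and the median cells gave 2.15% and 2.52%. It was 5.95% in the spleen, with a median of 3.55%, so the ratio was 0.413 (0.407 to 0.420) for allograft over spleen and 0.534 (0.527 to 0.540) for native over spleen. Of 82 members measured in the trachea, 0 were higher by 1.5-fold or more in the allograft and 9 lower, where 15.4% and 7.56% of all genes were, and the median log2 ratio was −0.40 over members and 0.11 over all genes. Of 83 members, 0 were higher and 76 lower in allograft than in spleen neutrophils (28.1% and 34.5% of all genes), and 0 and 71 in native than in spleen neutrophils (23.6% and 37.8%).

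The lowest ratio between allograft and native neutrophils was that of Rpl4, which lines the exit tunnel, at 59.6 CPM in allograft, 118 CPM in native and 311 CPM in spleen (0.504 over native, 0.364 to 0.688). Rps18, in the head of the small subunit, was at 86.7, 154 and 494 CPM. Rpl28 was at 261, 451 and 912 CPM, and Rpl29 at 31.4, 59.6 and 134 CPM. Not all members moved with them: Rps27l was at 123, 124 and 107 CPM, and Rps29 at 555, 585 and 680 CPM.

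A few deep cells carried part of this. In a split chosen after the data were seen, 0 allograft, 5 native and 18 spleen neutrophils held 10000 or more UMIs. The 5 native cells held 4.46% of the UMIs of their set and 15.9% of its ribosomal UMIs, and the 18 spleen cells 24.9% and 43.2%. In the spleen those cells gave 10.3% and their 6 cycling genes summed to 920 CPM, against 14.8 CPM in the shallower ones. Without them the shares were 2.46% in allograft, 2.79% in native and 4.50% in spleen neutrophils, in the same order, and the allograft over native ratio was 0.880. The 6 B cell markers summed to 4.34, 6.62 and 78.1 CPM in the neutrophils of the allograft, native and spleen libraries, and 6546 CPM in splenic B cells. The part of free RNA in these values was not tested. Of 13 RNA quality genes, mitochondrially encoded transcripts and nuclear RNAs, 0 were 1.5-fold or more higher and 9 lower in allograft than in native neutrophils, with a median log2 ratio of −0.75, although their sum was 41914 CPM in allograft and 40795 CPM in native neutrophils.

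Against macrophages of the same library, neutrophils gave 0.214, 0.267 and 0.384 times the share in allograft, native and spleen. In the native trachea 1 of 84 members was 1.5-fold or more higher in neutrophils and 79 were lower, where 20.9% and 52.2% of all genes were. In the allograft the counts were 1 and 80 (21.8% and 52.2%), and in the spleen 0 and 81 (14.7% and 48.4%). The gene Fau, which encodes a small-subunit protein fused to a ubiquitin-like protein and falls outside the name rule, did not go along to the same degree. It was at 2617 CPM in allograft, 3147 CPM in native and 3747 CPM in spleen neutrophils, and at 3245, 3355 and 5635 CPM in the macrophages of these libraries. Rack1, a scaffold on the small subunit, was at 106, 141 and 502 CPM in neutrophils and at 1254, 1272 and 1652 CPM in macrophages.

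The neutrophils also differed in which ribosomal protein transcripts they held. Per 10000 ribosomal protein UMIs, Rps9 made up 584 in allograft, 521 in native and 422 in spleen neutrophils, against 126 in native mesenchymal cells, where it was lowest of the 15 sets of class and library. In CPM its level was still lower in neutrophils (1436, 1655 and 2513) than in macrophages (2453, 2301 and 3718). Rps27 made up 246, 246 and 130 per 10000 in allograft, native and spleen neutrophils, and Rps29 made up 226, 184 and 114. At the other end, Rps18 made up 35.3, 48.4 and 83.1 per 10000, against 132 in spleen T cells, and Rpl3 made up 41.0, 46.3 and 75.9. Rps4x, encoded on the X chromosome, made up 67.5, 67.4 and 131, against 204 in native mesenchymal cells. For each of these 6 genes the allograft and native neutrophils lay closer to each other than either lay to the spleen neutrophils. The spleen set included the 18 cells with 10000 or more UMIs, which held 43.2% of its ribosomal UMIs. Composition was not computed without them.

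**Figure D3:**
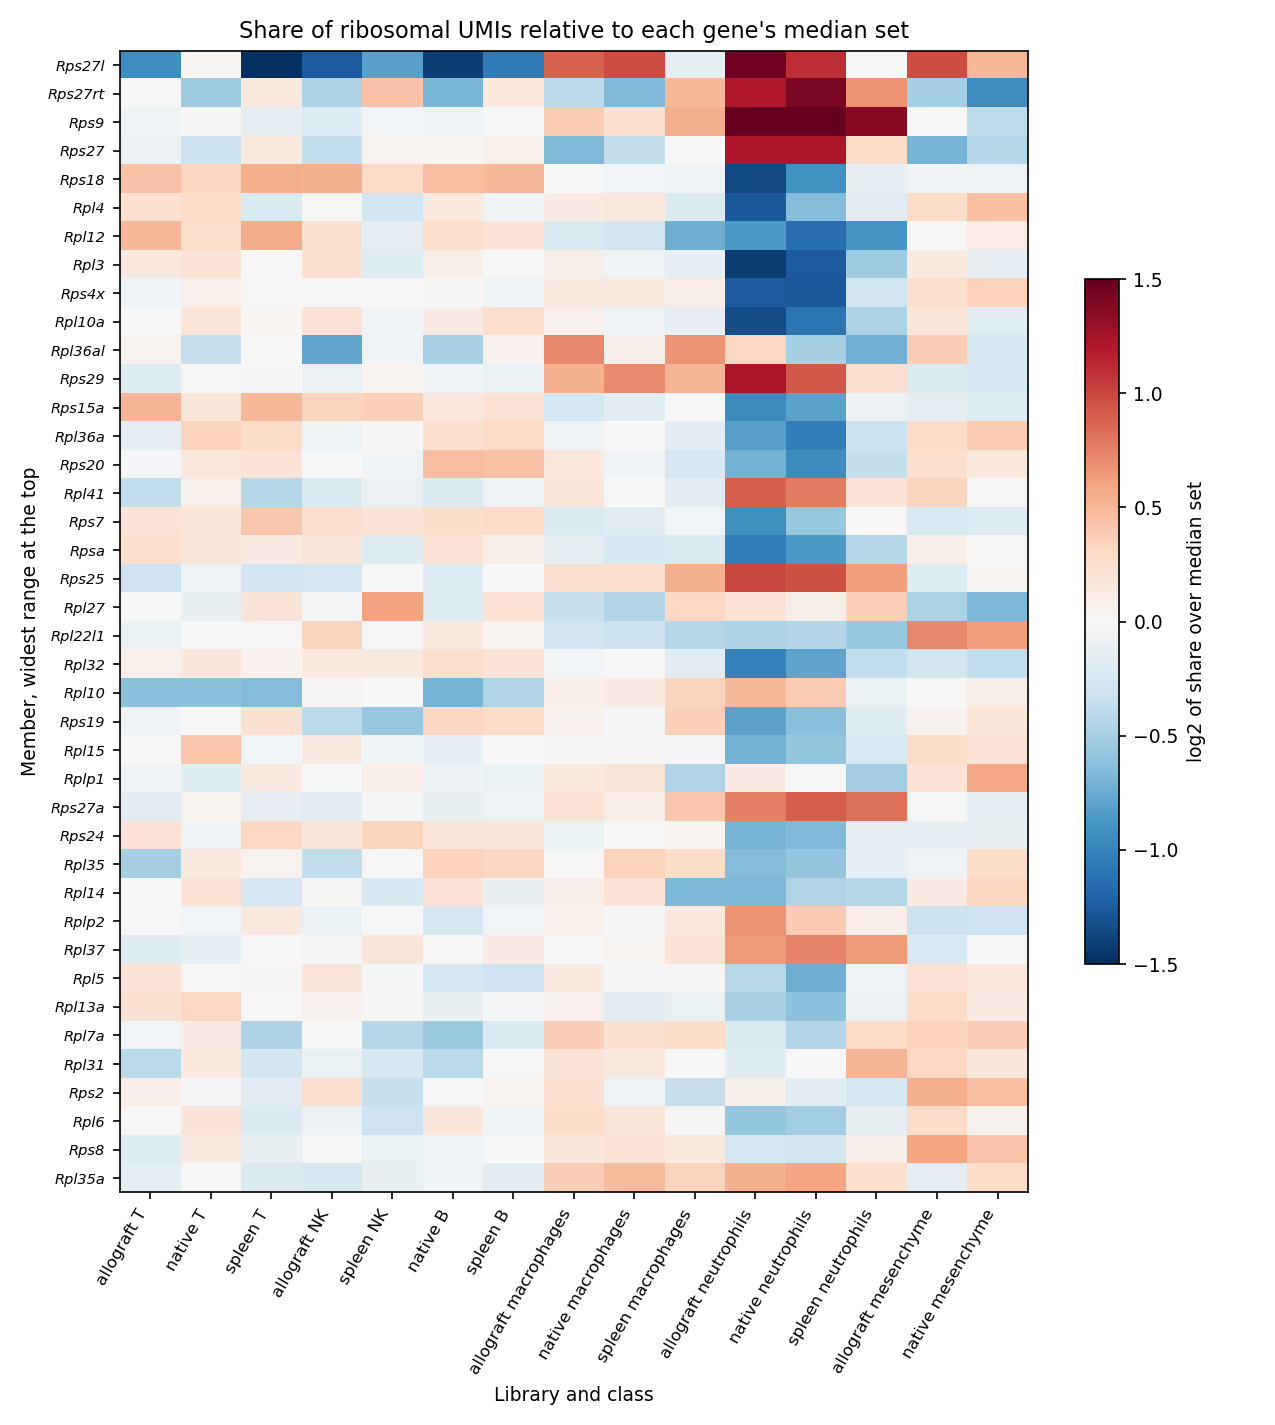
Heatmap of the 40 members with the widest range among the 81 with 5000 or more UMIs; columns are the 15 sets of class and library, and colour is the log2 of a member's share of ribosomal UMIs over its median set (red higher, blue lower, limits at 1.5). The neutrophil columns carry the strongest colours, red for Rps9 and Rps27 and blue for Rps18, Rpl4 and Rpl3.

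Over the 15 sets the share of ribosomal UMIs of a member ranged by a median of 1.79 times, and by under 1.5 times in 20 members and 2 times or more in 31. The steadiest were Rpl27a and Rpl30, both of the large subunit (1.28 times), and Rps10 of the small subunit (1.31 times). Rps27l ranged most among members with a value in every set, with 5.03 per 10000 in spleen T cells and 49.8 in allograft neutrophils (9.90 times). Rpl12 made up 202 per 10000 in spleen T cells and 62.3 in native neutrophils. Rps24, Rpl13 and Rplp1 were the most abundant members, and the 10 most abundant held 22.1%, 22.0% and 23.0% of ribosomal UMIs in allograft, native and spleen. The small subunit gave fewer UMIs than the large one in each set named here, with ratios of 0.852 in allograft macrophages, 0.804 in native mesenchymal cells, 0.902 in spleen T cells and 0.947 in spleen neutrophils.

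In some comparisons composition also went with the length of the coding sequence (from GENCODE M21), a property looked at after the data were seen. Over the 24 comparisons computed, the Spearman correlation ran from −0.37 to 0.72, and it was within 0.15 of 0 in 8 of them. It was above 0.15 in 10 and below −0.15 in 6. Across the 77 members without paralogs and non-ribosomal names, the log2 ratio of the share of ribosomal UMIs in allograft over spleen NK cells had a Pearson correlation of 0.68 and a Spearman correlation of 0.72 with coding length. For allograft over spleen T cells the values were 0.55 and 0.58, for native over spleen T cells 0.37 and 0.43, and for allograft over native macrophages 0.33 and 0.34. The sign was the other way for allograft over spleen neutrophils, −0.45 and −0.34. It was also negative for spleen B cells over other spleen cells (−0.32 and −0.35) and for spleen NK over T cells (−0.20 and −0.21). For spleen neutrophils over spleen macrophages the values were −0.01 and 0.02. Values near 0 were found for allograft over native T cells (0.03 and −0.05), native over spleen macrophages (0.09 and 0.06) and spleen T over B cells (0.05 and 0.02). Among other genes with 100 CPM or more and no longer than the longest member, the Spearman correlation was 0.15 over 1017 genes in NK cells and 0.19 over 932 genes in T cells. The 27 members with at most 405 coding bases made up 31.4% of ribosomal UMIs in allograft NK cells and 34.6% in spleen NK cells, and the 26 with at least 576 made up 34.5% and 31.4%. These are correlations across genes of the same libraries, genes are not independent replicates, and the comparisons of T and NK cells share the libraries.

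Mesenchymal cells gave 10.5% in 55 allograft cells and 11.5% in 943 native cells (0.910, 0.903 to 0.916). Of 84 members, 1 was higher by 1.5-fold or more in the allograft and 1 lower, where 24.8% and 19.5% of all genes were. The higher one was Rpl39l, at 55.7 CPM in allograft and 6.79 CPM in native mesenchymal cells (8.20, 5.44 to 12.2). It rested on 42 UMIs in 15 of 55 allograft cells and 68 UMIs in 50 of 943 native cells, and no cell held more than 7. Of the 42 UMIs, 37 lay in the 41 allograft cells with fewer than 5 UMIs of the cartilage collagen Col2a1. The lower one was Rpl21, at 851 and 1327 CPM (0.641), followed by Rps16 at 1698 and 2522 CPM (0.673) and Rpl35a at 1311 and 1924 CPM (0.681).

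In the native trachea, mesenchymal cells and macrophages gave nearly the same share, 11.5% and 11.9% (0.970, 0.968 to 0.973), with 2 members 1.5-fold or more higher and 3 lower (36.3% and 26.7% of all genes). The higher ones were paralogs: Rpl39l, and Rpl22l1 at 599 CPM in mesenchymal cells and 320 CPM in macrophages (1.87). Among the lower ones were Rps29 at 921 and 1873 CPM and Rps9 at 1452 and 2301 CPM.

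The paralogs departed from the set most often, so each is set against its partner. Rpl22l1 stood at 76.5% of the CPM of Rpl22, which mouse T cells need for their development, in allograft mesenchymal cells and at 66.0% in native ones. In macrophages it stood at 33.0%, 32.1% and 31.1% in allograft, native and spleen, and in T cells at 43.0%, 47.8% and 46.7%. In NK cells it stood at 57.0% in allograft and 44.8% in spleen, and in neutrophils at 43.5%, 46.0% and 35.2% in allograft, native and spleen, so sources of these classes differed by about as much as macrophages did from T cells.

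Rps27l stood at 49.5%, 43.1% and 15.4% of Rps27 in allograft, native and spleen macrophages, and at 54.6% and 32.4% in allograft and native mesenchymal cells. In T cells it stood at 9.40%, 21.7% and 4.32%, and in neutrophils at 20.3%, 15.9% and 13.9%. Rpl36al stood at 18.9%, 11.6% and 19.7% of Rpl36a in allograft, native and spleen macrophages, at 12.7%, 6.72% and 9.04% in T cells, and at 11.7% and 6.99% in allograft and native mesenchymal cells. The allograft percentage was thus above the native one in each of these classes for Rpl36al, and for Rps27l in macrophages, neutrophils and mesenchymal cells but not in T cells. Rps27l itself was not higher in allograft macrophages (382 and 425 CPM in allograft and native) or neutrophils (123 and 124 CPM). The partner Rps27 was lower there, at 772 and 986 CPM in macrophages and 605 and 780 CPM in neutrophils. In macrophages without a UMI of Lyve1 or Cd163, Rps27l was at 381 CPM in allograft and 517 CPM in native cells. Rps27 was at 774 and 1073 CPM in them, so both genes were lower in the allograft by a similar factor. In the macrophages with these markers (88 allograft cells), Rps27l was at 423 and 353 CPM and Rps27 at 700 and 918 CPM. The part of this mix of cells in the macrophage percentages was not tested. In mesenchymal cells Rps27l was at 374 CPM in allograft and 294 CPM in native, and Rps27 at 685 and 907 CPM.

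**Figure D4:**
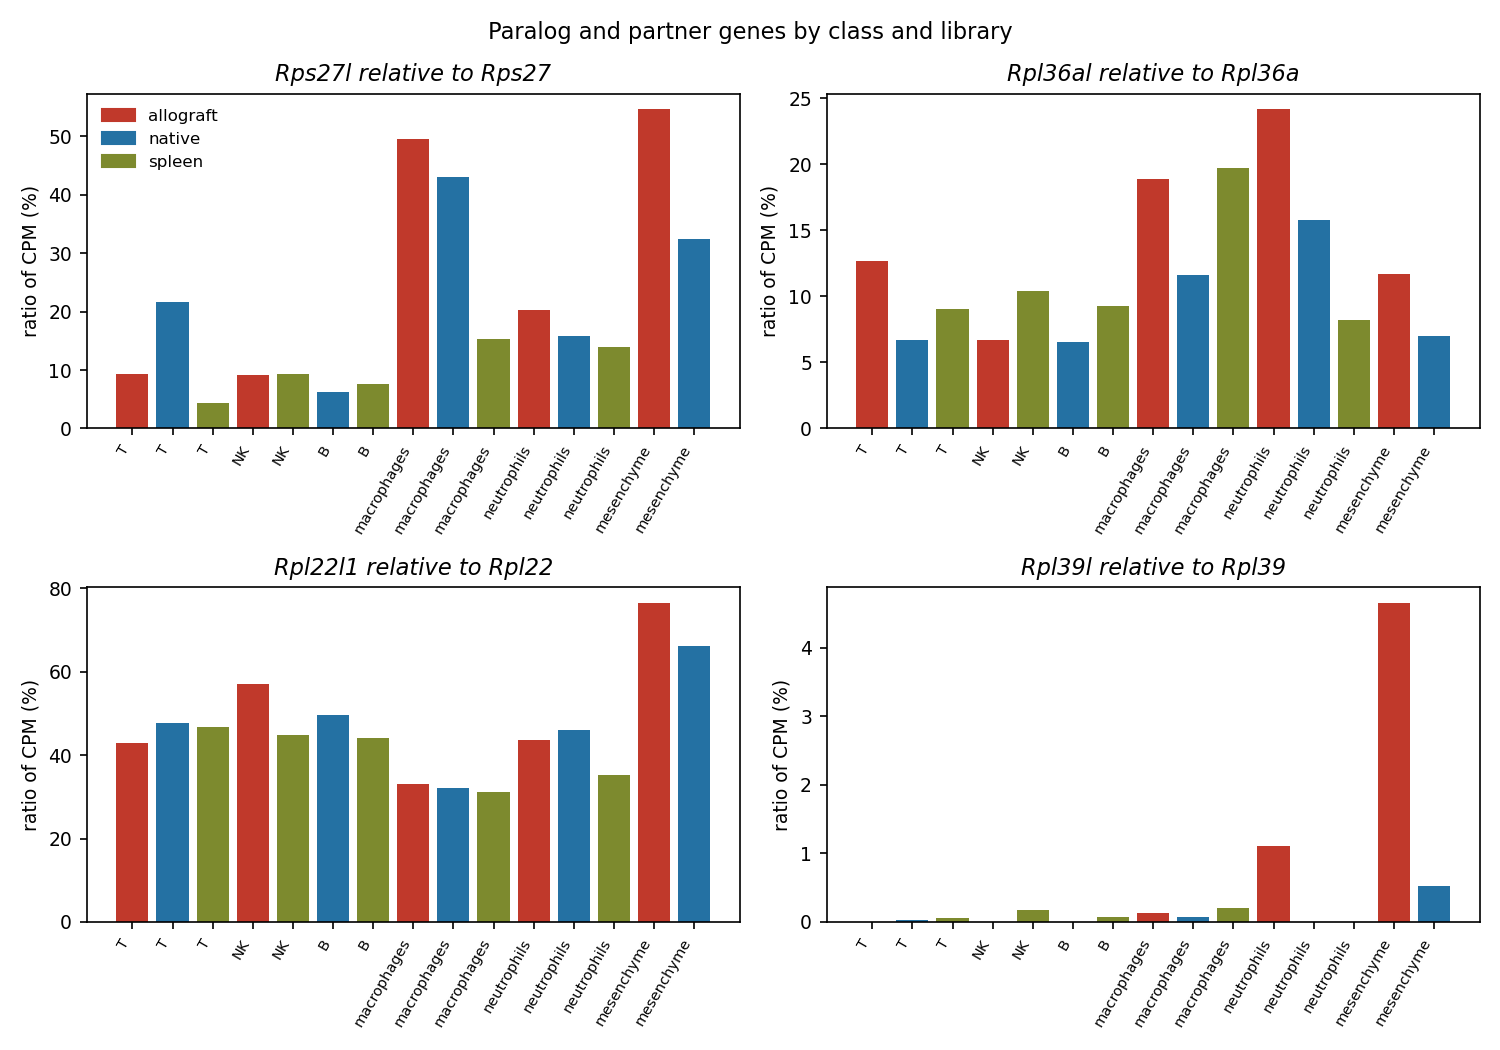
Level of 4 paralogs as a percentage of the CPM of the partner gene (vertical axis) in each class and library (bars; red allograft, blue native, green spleen). Rps27l reaches 54.6% of Rps27 in allograft mesenchymal cells and is at 4.32% in spleen T cells, Rpl22l1 is highest in mesenchymal cells, and Rpl39l exceeds 4% of Rpl39 in allograft mesenchymal cells alone among the sets drawn.

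The rarest member, Rpl3l, is known in mice as the copy of Rpl3 used in striated muscle. Its UMIs were 20, 22 and 17 in allograft, native and spleen neutrophils, or 21.7, 16.2 and 15.8 CPM, and 19 in spleen macrophages (17.0 CPM). Allograft and native macrophages held 6 and 16 (0.330 and 1.23 CPM). None was found in allograft or spleen T cells, where 3 UMIs would be 1.88 and 0.580 CPM, or in NK cells. Rps27rt, Rps27 and Rpl36al with Rpl36a are close copies of each other, and how reads matching several copies were counted is not given in the sources used here, so their split is uncertain. Names holding -ps, 9 genes outside the set, held 4692 UMIs, or 0.0344%, 0.0289% and 0.0326% of the ribosomal UMIs of the allograft, native and spleen libraries.

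Other genes of translation were read from lists, with the number of members 1.5-fold or more higher and lower. Ribosomal proteins of the mitochondria, which serve a separate ribosome, were higher in 10 and lower in 0 of 77 in allograft over native macrophages, with a median log2 ratio of 0.30 and sums of 3347 and 2792 CPM. Of all genes 14.9% were higher and 12.3% lower there, with a median of 0.12, so the count on the higher side was near the background. In T cells they were higher in 1 and lower in 23 of 75, with a median of −0.36 and sums of 3800 CPM in allograft and 4873 CPM in native cells, where 19.5% of all genes were higher and 18.4% lower, with a median of 0.00. The cytosolic set moved by medians of −0.04 and −0.08 in the same comparisons. As given above, 70 of the 189 native T cells held a UMI of Rag1, Rag2 or Dntt. Their part in the list values of allograft over native T cells, here and below, was not tested.

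Of the ribosome biogenesis genes, which act in the nucleolus, 2 of 30 were higher and 1 lower in allograft over native macrophages (median 0.02; 14.9% and 12.3% of all genes), and 1 and 6 of 29 in T cells (median −0.37; 19.5% and 18.4%). In allograft over spleen NK cells only 9 of the 30 held enough UMIs, of which 5 were higher and 1 lower (median 0.61, against −0.01 over all genes), where 21.6% and 21.0% of all genes were. In spleen T cells over macrophages 20 of 30 were higher and 0 lower (median 0.88, against −0.02 over all genes), where 27.0% and 28.9% were. Elongation factors carry transfer RNAs to the ribosome and move it along, and their list here also held Tpt1, which is not named as one. Of these 8 genes, 2 were lower in allograft over spleen T cells (median −0.40, against 0.05 over all genes), a count near the 22.2% of all genes. Their sums were 20963 CPM in allograft and 25942 CPM in spleen T cells, of which Tpt1 alone gave 11082 and 14132 CPM. In spleen T cells over macrophages 6 of 8 were higher (27.0% of all genes), and in native neutrophils over macrophages 7 of 8 lower (52.2% of all genes; median −1.95, against −0.68 over all genes). Of the initiation factors, 6 of 27 were higher and 0 lower in allograft over spleen T cells (median 0.36), where 25.7% and 22.2% of all genes were. In native neutrophils over macrophages 23 of 27 were lower and 1 higher, where 52.2% and 20.9% of all genes were.

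Genes outside the name rule whose products sit on the ribosome, among them Fau and Rack1, were lower in 1 and higher in 0 of 6 in allograft over spleen T cells (median −0.39), and 0 of 6 were either way in allograft over native macrophages (median −0.03). Regulators of ribosome production were higher in 5 and lower in 1 of 13 in allograft over spleen T cells (median 0.45). Of all genes 22.2% were lower and 25.7% higher in that T cell comparison, with a median of 0.05. Among them Myc, which drives transcription of ribosome genes, was at 6.28 CPM in allograft and 38.5 CPM in spleen T cells, and Sesn2, which restrains mTORC1, at 32.7 and 1.74 CPM. The lower value of each is a low level, no interval is given, and a link to the ribosomal share was not tested. Myc was at 133 CPM in native mesenchymal cells and 16.4 CPM in native macrophages. Sesn2 was at 68.9 CPM in allograft and 15.8 CPM in native mesenchymal cells, and at 111 CPM in native neutrophils and 13.5 CPM in native macrophages.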

How the data were processed

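Single-cell 3′ libraries (10x Chromium, version 3 chemistry, per the labels' protocols) were deposited by the authors as raw UMI counts per gene and barcode, made per the file headers by Cell Ranger 3.1.0. The submitters' processing notes name genome build mm10. The annotation release is not given in the sources used here. Each of the 3 sources has 1 matrix holding its 4 samples with no map from cells to samples, so it was treated as 1 library.

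From these counts, barcodes with 500 or more genes and 20% or less mitochondrially encoded UMIs were kept (12549 cells), and barcodes that scrublet (scanpy 1.11.5, run on each library, 0.8% expected for each 1000 barcodes) marked as doublets were left out. Classes were gated by 6 markers each. UMIs were summed per set and compared as ratios of CPM, with exact conditional binomial 95% intervals (scipy 1.17.1) for counting error only. UMIs were not corrected for free RNA. A gene was measured in a comparison with 30 or more UMIs over both sets, and a fold of 1.5 was the limit of a count. Named genes are the 4 highest and 4 lowest ratios per comparison, the paralogs and their partners, the stalk genes and the largest ratios of each list. The lists were elongation factors with Tpt1, initiation factors, ribosome biogenesis, ribosome-associated genes, mitochondrial ribosomal proteins, regulators and RNA quality genes. The members and lists were chosen with earlier results of these data known. Genes singled out for their composition, Fau and Rack1, the coding length and the splits of single members were chosen after their values were seen. Intervals were tested on sums simulated with counting error alone, so that test does not cover spread between cells or libraries. Alternatives were other cell filters, doublets kept, looser and stricter gates, Leiden clusters (leidenalg 0.10.2, igraph 0.11.9, resolution 0.5, 2000 variable genes, 30 components, 15 neighbours), totals without mitochondrially encoded UMIs, means per cell, cells thinned to 1500 UMIs, other member sets, median-of-ratios scaling over the members and a minimum of 100 UMIs. Scripts ran in Python 3.11.15 with matplotlib 3.10.9, anndata 0.12.19, pandas 2.3.3 and numpy 2.4.6. Positions and coding lengths came from GENCODE M21 and promoters from RefSeq. Some items are not reported here.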

Additional observations from a re-analysis of the deposited data

How the results depend on the processing

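Across alternatives 40 values stayed within the counting interval of the main value (or, for counts, within 1.5 times), 39 lay outside it and 2 changed direction; counting intervals are narrow, so small shifts fall outside. The cause of the shifts was not tested. The values that changed direction were the allograft over native ratio in all cells, 1.03 when cells were thinned to 1500 UMIs (main 0.987), and in T cells, 1.01 when thinned (main 0.949). Thinning left out 350 allograft, 186 native and 141 spleen cells. In all cells the other shifts were 0.980 with no cell filter, 0.996 with 1000 or more genes and 10% or less mitochondrial UMIs, 0.990 with doublets kept and 0.993 for means per cell. In T cells they were 0.934 with the stricter gate, 0.888 with clusters, 0.999 for means per cell and 0.904 without cells holding a UMI of Rag1, Rag2 or Dntt. In macrophages (main 0.967) the ratio was 0.944 with the looser and 0.986 with the stricter gate, 0.890 with clusters, 0.961 without mitochondrial UMIs, 0.953 for means per cell and 0.961 when thinned. In neutrophils (main 0.774) it was 0.829 with doublets kept, which added 3 allograft cells, 0.851 with the looser gate, 0.819 for means per cell and 0.816 when thinned, and 0.880 in cells under 10000 UMIs, an alternative chosen after seeing the data. In mesenchymal cells (main 0.910) it was 0.903 with no filter, 0.894 with the looser gate, 0.918 without mitochondrial UMIs, 0.896 for means per cell and 0.893 when thinned. For allograft over spleen NK cells (main 1.14) it was 1.12 with the looser gate, 1.13 for means per cell and 1.12 when thinned. For spleen B cells over other cells (main 1.14) it was 1.15 with no filter, 1.12 with the stricter filter, 1.08 and 1.21 with the looser and stricter gates, 1.06 with clusters, 1.17 without mitochondrial UMIs, 1.26 for means per cell and 1.24 when thinned. The 2 members apart within ribosomal UMIs in macrophages became 0 when thinned, 0 without the paralogs, 4 with the names holding -ps and 1 with 100 or more UMIs.

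The stricter filter in neutrophils, the stricter filter, stricter gate and clusters in mesenchymal cells, and the stricter gate and clusters in NK cells left fewer than 50 cells in a library and were not run. No paired analysis was possible because each matrix pools the 4 samples of its source and carries no replicate columns, and no replicate was left out for the same reason. Depth limits the rarest members, Rpl39l and Rpl3l, with 241 and 200 UMIs in all.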

Other observations

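Cells outside the 6 classes were read by further marker lists where 3 or more of 6 markers were present. Dendritic cells, which present antigen to T cells, gave 18.8% of their UMIs to ribosomal protein genes in 35 allograft cells, 19.9% in 43 native cells and 20.5% in 22 spleen cells, above the macrophages of each library (11.5%, 11.9% and 15.5%). In the spleen, 53 cells with erythroid markers gave 28.4%, at a median of 31169 UMIs per cell, and 74 cells with plasma cell markers gave 19.5%, with the middle 50% of cells between 7.73% and 28.3%. In the native trachea 24 epithelial cells gave 13.7% and 19 endothelial cells gave 13.8%. These values are descriptions of single libraries, and no difference among them was tested.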
